A study of Mus musculus with 24 samples.

Results

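The genes described here are those that build and assemble the axoneme, the microtubule core of the motile cilium. They were chosen by name from a table of mouse corpus callosum, as protein-coding genes called Cfap, Dnah, Dnaaf, Rsph or Drc followed by a digit. The rule found 61 genes among 21918 protein-coding genes and 54446 gene IDs, namely 31 Cfap, 15 Dnah, 4 Dnaaf, 8 Rsph and 3 Drc genes. The question attached to them is whether Cfap44 moves with the rest. Cfap44 had been singled out with earlier results of these data known, so its own differences are given as a description with no p-value. Counts of members called include it, and its part in them is a description too.

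Polyadenylated RNA of the corpus callosum was sequenced in 24 libraries, that tissue being the white matter tract between the hemispheres. Cuprizone is a copper chelator that kills oligodendrocytes and so strips myelin, and BTKi is an inhibitor of Bruton's tyrosine kinase, an enzyme of B cells and myeloid cells that microglia also use. The 4 groups were cuprizone with BTKi (cuprizone BTKi, n = 8), cuprizone with vehicle (cuprizone vehicle, n = 8), BTKi without cuprizone (naive BTKi, n = 4) and vehicle without cuprizone (naive vehicle, n = 4). According to the design text the inhibitor was given once disease had been induced. The sources used here do not give the compound, doses, times, strain, age or sex. No label says that libraries came from separate animals, so a p-value measures how far these samples vary, and some of that may be technical.

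A motile cilium bends because dynein motors on its outer microtubule doublets slide against each other. Dnah genes encode the heavy chains of those motors, and Dnaaf genes the cytoplasmic factors that fold and preassemble them. Rsph genes encode radial spokes, which pass signals between the central pair and the doublets, and Drc genes encode the nexin-dynein regulatory complex that links neighbouring doublets. Cfap genes form a broad naming family of cilia and flagella associated proteins. In the adult brain motile cilia are carried mainly by ependymal cells, which line the ventricles next to the corpus callosum, and cilia are also found on choroid plexus epithelium.

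Most members were expressed at low levels. FPKM, a level scaled by gene length and library total, had a median of 1.03 over the 61 members, as means over the 24 libraries, against 8.02 over the 15216 genes with a mean of at least 0.5 FPKM. Only those 15216 genes were tested, and 39 of the members were among them (22 Cfap, 5 Dnah, 3 Dnaaf, 6 Rsph and 3 Drc genes). The other 22 had lower means, 18 of them between 0.1 and 0.5 FPKM and 4 under 0.1. Dnah2, an inner arm motor, was the last member inside that limit at 0.571 FPKM, and Dnah14 the first outside it at 0.479 FPKM. Cfap97d1 was listed at 0 in every library, while 59 members were above 0 in all 24.

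The 5 members above 10 FPKM were Cfap36 (46.2), Cfap20 (27.3), Cfap298 (14.0), Rsph3b (12.2) and Rsph3a (11.4). Cfap36 binds the small GTPase ARL3, Cfap20 sits inside the doublet microtubules, Cfap298 helps to assemble dynein arms, and the Rsph3 proteins belong to the radial spoke stalk. Among the motors Dnah1, an inner arm heavy chain, had the highest mean at 2.15 FPKM, followed by Dnah9, an outer arm heavy chain, at 1.42 FPKM and Dnah7a, an inner arm heavy chain, at 1.41 FPKM. Dnah5, another outer arm heavy chain, had 0.332 FPKM. The assembly factors were led by Dnaaf5 at 2.50 FPKM, with Dnaaf3 at 1.03 and Dnaaf2 at 0.696 FPKM. Rsph9, of the spoke head, had 6.76 FPKM. The regulatory complex genes Drc3, Drc1 and Drc7 had 5.87, 3.86 and 3.00 FPKM.

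Some members share sequence or position with other genes. Rsph3a and Rsph3b are near-identical copies, as are Dnah7a, Dnah7b (0.684 FPKM) and Dnah7c (0.142 FPKM), and how the authors' counting divided reads between them is not given, so values within each set are uncertain. Cfap61 overlaps Crnkl1 (4.77 FPKM) on the opposite strand, and so do Rsph9 with Mrps18a (44.5 FPKM) and Cfap43 with Gsto1 (20.9 FPKM). The kit keeps strand, but whether the counting used it is not given. Cfap46 and Dnaaf3 overlap low genes on their own strand, Gm4459 (0.694 FPKM) and Tnni3 (0.773 FPKM). Cfap44 overlaps no gene that was tested.

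Depth was alike in all libraries but one. Read back from the low values of genes with 1 annotated transcript, 23 libraries held 29815000 to 30960000 fragments and cuprizone BTKi 5 held 26475000. For Rsph4a, a radial spoke head gene with 1 transcript, the values correspond to 62 to 113 fragments in naive BTKi libraries and 113 to 174 in naive vehicle libraries. For Dnaaf1, an assembly factor below the limit, they correspond to 12, 26, 11 and 16 fragments in naive BTKi libraries and 9, 34, 18 and 26 in naive vehicle libraries. Counting error alone is therefore sizeable for Dnaaf1. FPKM is scaled by gene length, so this does not hold for every member under 0.5 FPKM. Dnah5, also with 1 transcript, corresponds to 128 to 152 fragments in naive BTKi and 120 to 190 in naive vehicle libraries.

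Markers of the cells around the ventricles varied between libraries. The ependyma list, 15 genes that are not members, of which 13 were tested, summed to 43.9 to 61.5 FPKM in cuprizone BTKi, 28.7 to 64.3 in cuprizone vehicle, 38.4 to 65.1 in naive BTKi and 42.5 to 83.8 in naive vehicle libraries. It includes Foxj1, the transcription factor that switches on the motile cilium programme. At least 4 of its tested genes themselves encode ciliary proteins, and not all of the others were checked for this. It is therefore at least in part, and perhaps for the most part, a list of cilium genes. The choroid plexus list of 15 genes summed to 553 to 1620, 96.0 to 1939, 693 to 3181 and 1497 to 2330 FPKM in the same order of groups. Cuprizone vehicle libraries 1, 4 and 7 stood apart, with 213, 96.0 and 118 FPKM of choroid plexus markers. Every ependyma marker was above 0 in some library. The 6 spermatid markers, of the other main cells that use these genes, summed to at most 0.179 FPKM per library, and 2 of them were at 0 throughout.

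**Figure D1:**
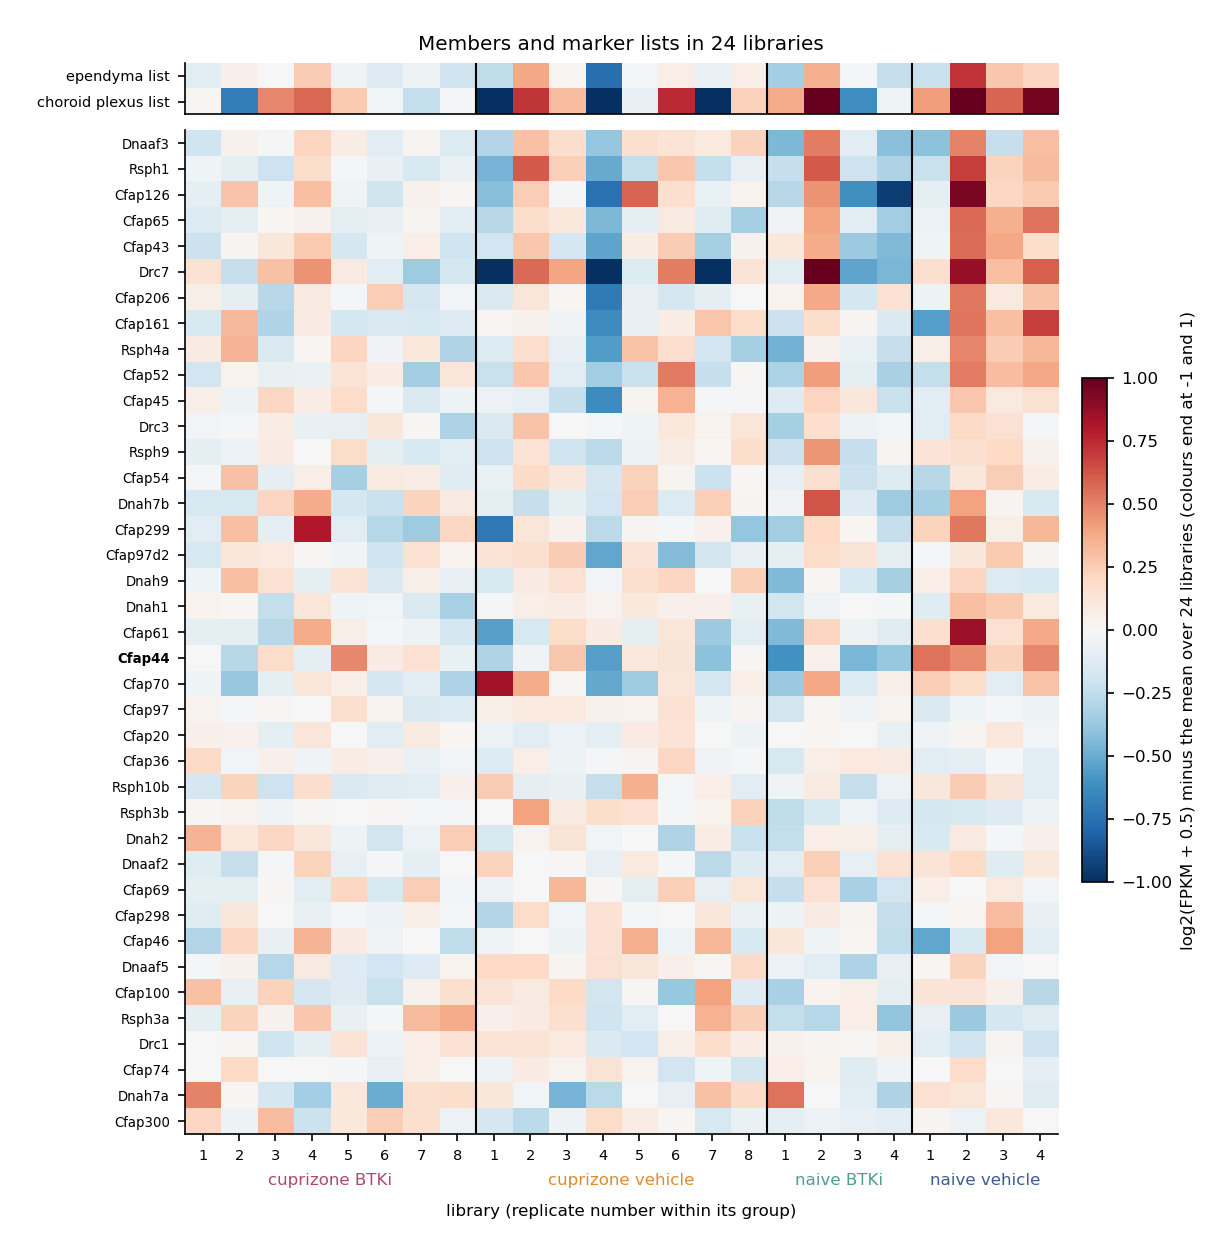
Level of each of the 39 tested members in each library, as log2(FPKM + 0.5) minus the member's mean over 24 libraries, with the ependyma and choroid plexus lists above on the same scale. Columns are libraries in 4 groups and rows are ordered by the correlation with the ependyma list; members in the upper rows are high in naive vehicle 2 and low in cuprizone vehicle 4, where the ependyma list is highest and lowest.

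Cfap44 lies at chr16:44394796-44482428 on the plus strand (GRCm38, GENCODE M21) and has 7 annotated transcripts. Its protein belongs, with Cfap43, to the complex that tethers an inner arm dynein to the doublet, and its loss disturbs the sperm flagellum in mice and humans. Its promoter is shown because it holds 3 copies of a short motif discussed below. The 300 bases (RefSeq, GRCm38.p6, chr16:44394549-44394848, plus strand) run from 250 bases before the gene start to 50 after it, and capitals mark RFX sites, GTTGCCA or GTTGCTA on either strand.
Cfap44 promoter: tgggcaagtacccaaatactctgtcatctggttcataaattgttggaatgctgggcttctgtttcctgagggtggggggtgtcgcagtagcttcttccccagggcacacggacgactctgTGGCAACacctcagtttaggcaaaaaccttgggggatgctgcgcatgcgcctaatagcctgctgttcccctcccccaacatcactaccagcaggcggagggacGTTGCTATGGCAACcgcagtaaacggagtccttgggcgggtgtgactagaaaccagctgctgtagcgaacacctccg

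Cfap44 was lower in naive BTKi than in naive vehicle libraries. Its values were 0.848, 1.61, 0.988 and 1.07 FPKM in naive BTKi libraries 1 to 4, against 2.48, 2.34, 1.90 and 2.35 FPKM in naive vehicle libraries 1 to 4. The groups did not overlap, and naive BTKi 2 was the one nearest to the vehicle libraries. The means were 1.13 ± 0.332 and 2.27 ± 0.254 FPKM (SD, n = 4 each), and the log2 difference, on the log2(FPKM + 0.5) scale used throughout, was -0.78 (SE 0.17).

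The difference of Cfap44 was the lowest among the 39 members in that comparison. Most of the others were also below 0, 33 of 38, with a median of -0.12 and a middle range of -0.27 to -0.03, while the median over all genes tested was -0.02. Next in order came Cfap126 (Flattop), which acts in basal body placement, with a log2 difference of -0.68 (SE 0.25). Cfap126 had 3.74, 6.50, 2.86 and 2.17 FPKM in naive BTKi libraries, against 4.34, 9.39, 5.42 and 5.67 in naive vehicle libraries, so its groups overlapped and the gap between it and Cfap44 is within their standard errors. Cfap61, of the complex at the base of a radial spoke, followed at -0.49 (SE 0.17) and Drc7 at -0.48 (SE 0.38). At the other end Drc1 stood at 0.16 (SE 0.08, limma adjusted p = 0.434).

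Apart from Cfap44 no member passed limma's test for BTKi in naive mice. Cfap44 was singled out with earlier results known, so its place in the counts is a description and not a test. With Cfap44 counted, 1 of 39 members was called, where 0.217% of all genes tested were called, 0.105% higher and 0.112% lower (adjusted p under 0.05, Benjamini-Hochberg over 15216 genes), and 7 of 39 had an unadjusted p under 0.05, where 12.6% of all genes tested had. The count was 0 in 13 of the 24 fits that left out 1 library, namely every fit without a naive vehicle library, those without naive BTKi 1, 3 or 4, and 6 without a cuprizone library (cuprizone BTKi 1, 3, 6, 7 or 8, or cuprizone vehicle 2), while the estimate of Cfap44 ran from -0.98 to -0.63 over all alternatives. The values of 4 members did not overlap between the groups, all lower in naive BTKi, where 7.36% of all genes tested did not overlap (4.93% lower, 2.43% higher). Besides Cfap44 these were Rsph4a, Dnaaf5 and Cfap300, a cytoplasmic factor for dynein assembly. Rsph4a had 0.566, 1.02, 0.915 and 0.759 FPKM in naive BTKi libraries, against 1.04, 1.57, 1.27 and 1.36 in naive vehicle libraries, a log2 difference of -0.47 (SE 0.16, limma adjusted p = 0.222). Its nearest values, 1.02 and 1.04 FPKM, correspond to the same fragment count of 113. Dnaaf5 had 2.36, 2.25, 1.91 and 2.32 FPKM in naive BTKi libraries, against 2.52, 2.98, 2.43 and 2.47 in naive vehicle libraries. Its difference was -0.19 (SE 0.08, limma adjusted p = 0.332) and that of Cfap300 -0.11 (SE 0.10, limma adjusted p = 0.689).

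Ependymal markers lay in the same direction. All 13 tested genes of the ependyma list had negative estimates for naive BTKi against naive vehicle (median -0.33), but none was called by limma, none had an unadjusted p under 0.05, and the list's mean level did not pass (-0.06 against 0.25, two-sided exact permutation test, adjusted p = 0.483 over 28 such tests). All 15 choroid plexus genes were below 0 too (mean level 0.28 against 0.74, exact permutation, adjusted p = 0.489), as were all 8 oligodendrocyte genes (0.66 against 1.02, exact permutation, adjusted p = 0.0889). The largest difference of mean level among the marker lists was that of the striatal neuron list, whose 8 genes were all below 0 (median -0.48) and which averaged 0.17 in naive BTKi against 0.68 in naive vehicle (exact permutation, adjusted p = 0.458). Its summed level ran from 219 to 364 FPKM in naive BTKi and from 231 to 672 FPKM in naive vehicle, with naive vehicle 2 the highest. The part of these cell types in the difference of Cfap44 was not tested. In bulk tissue fewer cells of a type and less RNA per cell cannot be told apart.

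**Figure D2:**
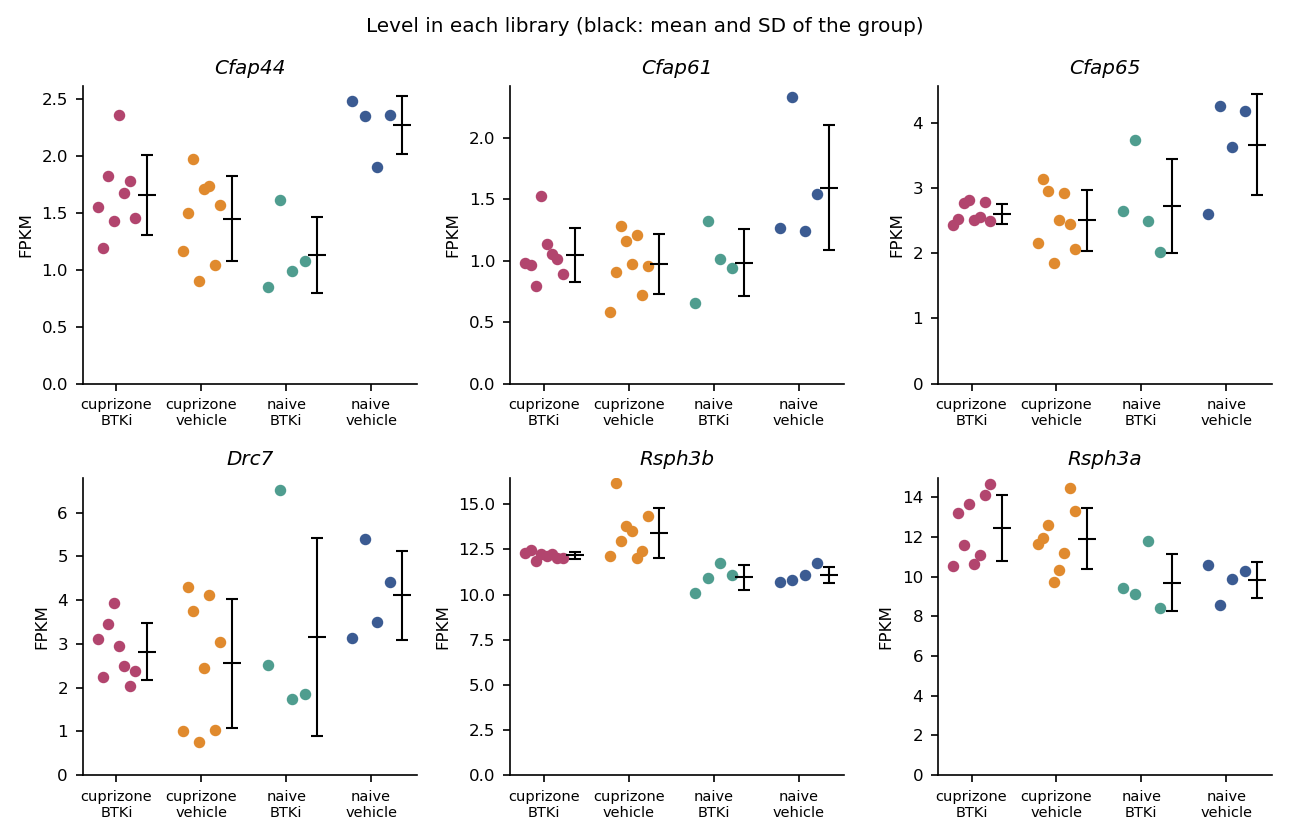
FPKM of 6 members in each library, by group, with a true zero on each axis; points are libraries and black bars give the group mean and SD. All 4 naive vehicle libraries of Cfap44 lie above all 4 naive BTKi libraries, and Drc7 has 3 cuprizone vehicle libraries near 1 FPKM.

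Cuprizone under vehicle changed 4 of the 39 members. Rsph3b rose, while Cfap65 and Cfap61 fell, and Cfap44 was counted with them as lower, as a description. These 4 compare with 15.0% of all genes tested that were called, 10.2% higher and 4.82% lower, with 3 members lower and 1 higher. An unadjusted p under 0.05 was found for 12 of 39 members and for 27.4% of all genes tested. The median difference of the members was -0.08 against 0.03 over all genes tested, and 28 of 39 were below 0.

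Rsph3b, of the spoke stalk, was the member with the clearest rise. It ranged from 12.0 to 16.2 FPKM (median 13.2) in cuprizone vehicle, against 10.7 to 11.7 FPKM (median 10.9) in naive vehicle libraries. The groups did not overlap, where 8.77% of all genes tested did not (5.92% higher, 2.85% lower), and Rsph3b was the one such member. Its log2 difference was 0.26 (SE 0.06, limma adjusted p = 0.00199). Its copy Rsph3a ranged from 9.73 to 14.5 FPKM (median 11.8) in cuprizone vehicle and from 8.56 to 10.6 FPKM (median 10.1) in naive vehicle, with the same size of difference, 0.26, and a larger error (SE 0.10, limma adjusted p = 0.0892).

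Cfap65, which the sperm flagellum needs in mice and humans, ranged from 1.85 to 3.14 FPKM (median 2.48) in cuprizone vehicle, against 2.60 to 4.27 FPKM (median 3.91) in naive vehicle. The log2 difference was -0.47 (SE 0.13, limma adjusted p = 0.0111), and naive vehicle 1, at 2.60 FPKM, lay within the cuprizone range. Cfap61 ranged from 0.578 to 1.28 FPKM (median 0.964) in cuprizone vehicle and from 1.24 to 2.33 FPKM (median 1.40) in naive vehicle, a log2 difference of -0.50 (SE 0.15, limma adjusted p = 0.0202). Naive vehicle 2 was the highest library for both genes.

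Cfap44 ranged from 0.900 to 1.97 FPKM (median 1.53) in cuprizone vehicle, against 1.90 to 2.48 FPKM (median 2.35) in naive vehicle, a log2 difference of -0.53 (SE 0.14). It was the second lowest of the members, after Drc7 at -0.74 (SE 0.33, limma adjusted p = 0.141). The 3 lowest cuprizone vehicle values of Cfap44, 0.900, 1.04 and 1.16 FPKM, belonged to libraries 4, 7 and 1, the libraries poor in choroid plexus RNA. The same libraries held the 3 lowest values of Drc7, 0.752, 1.02 and 1.02 FPKM, against 2.45 to 4.29 FPKM in the other 5 cuprizone vehicle libraries.

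Cfap65 and Cfap61 were no longer called without those 3 libraries, nor without naive vehicle 2. Without cuprizone vehicle 1, 4 and 7, the members called were 1 in place of 4, and the differences became -0.33 for Cfap44, -0.37 for Cfap65 (limma adjusted p = 0.0695) and -0.40 for Cfap61 (limma adjusted p = 0.0790). Without naive vehicle 2, Cfap65 had -0.40 (limma adjusted p = 0.0609), Cfap61 -0.34 (limma adjusted p = 0.144), and 2 members were called, Rsph3b and Cfap44, and without naive vehicle 4 Cfap65 had -0.40 (limma adjusted p = 0.0582). Without naive vehicle 1 the count was 6. Rsph3b was called without cuprizone vehicle 1, 4 and 7 and without naive vehicle 2. The ependyma list had 13 of 13 estimates below 0 in this comparison (median -0.32, mean level -0.07 against 0.25, exact permutation, adjusted p = 0.415), and the choroid plexus list had 15 of 15 below 0 (median -1.20, mean level -0.55 against 0.74, exact permutation, adjusted p = 0.113). Their part in the fall of Cfap65 and Cfap61 was not tested.

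Cuprizone was also compared under BTKi. Of the 39 members 1 was called, Rsph3a, where 7.87% of all genes tested were called, 6.11% higher and 1.77% lower, and 4 of 39 had an unadjusted p under 0.05, where 18.5% of all genes tested had. Rsph3a ranged from 10.5 to 14.7 FPKM (median 12.4) in cuprizone BTKi and from 8.43 to 11.8 FPKM (median 9.29) in naive BTKi libraries, with a log2 difference of 0.34 (SE 0.10, limma adjusted p = 0.0343). Without naive BTKi 1, 2 or 4 or cuprizone BTKi 2, 4, 7 or 8 that call was lost, with adjusted p up to 0.161. Rsph3b ranged from 11.9 to 12.5 FPKM in cuprizone BTKi and from 10.1 to 11.8 FPKM in naive BTKi without overlap, where 7.17% of all genes tested did not overlap (5.70% higher, 1.47% lower), but its difference of 0.15 (SE 0.06) did not pass (limma adjusted p = 0.134).

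Cfap44 was the highest of the 39 members in that comparison, with a log2 difference of 0.41 (SE 0.14) beside a median of 0.03 over the other 38. It ranged from 1.19 to 2.35 FPKM (median 1.61) in cuprizone BTKi and from 0.848 to 1.61 FPKM (median 1.03) in naive BTKi. The groups overlapped through naive BTKi 2. Cfap126 came next at 0.38 (SE 0.22), and 27 of 39 members were above 0. Ependyma markers had 7 of 13 estimates above 0 (mean level -0.03 against -0.06, exact permutation, adjusted p = 0.842).

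The cuprizone groups were then set against each other. No member was called for cuprizone BTKi against cuprizone vehicle, where limma called 0.177% of all genes tested (0.0394% higher, 0.138% lower), and 3 of 39 had an unadjusted p under 0.05, where 8.79% of all genes tested had. These members were Dnaaf5 at -0.19 (SE 0.06, limma adjusted p = 0.265), Rsph3b at -0.13 (SE 0.05, limma adjusted p = 0.365) and Cfap300 at 0.14 (SE 0.07, limma adjusted p = 0.561). No member's values were apart between the groups, where 0.131% of all genes tested were (0.0263% higher, 0.105% lower). Cfap44 had 1.65 ± 0.348 FPKM in cuprizone BTKi and 1.45 ± 0.376 FPKM in cuprizone vehicle (SD, n = 8 each), a difference of 0.15 (SE 0.12), and ranked 37 of 39 from the lowest. Drc7 was the highest at 0.28 (SE 0.27).

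The BTKi effect in cuprizone mice minus that in naive mice was highest for Cfap44, at 0.94 (SE 0.20), and the other 38 members had a median of 0.10 with 33 above 0. No member was called by limma for this difference, where 0.125% of all genes tested were (0.00657% higher, 0.118% lower), and 7 of 39 had an unadjusted p under 0.05, where 9.74% of all genes tested had. Cfap44 thus had the sign of the majority in each comparison and an estimate at or near the end of the members' range. For cuprizone BTKi against cuprizone vehicle that majority was slight, with 20 of the other 38 members above 0 and 18 below. These comparisons share libraries, so they do not count as separate evidence: the naive vehicle libraries enter both comparisons with naive vehicle, and the naive BTKi libraries enter both comparisons in which Cfap44 was farthest from the others.

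**Figure D3:**
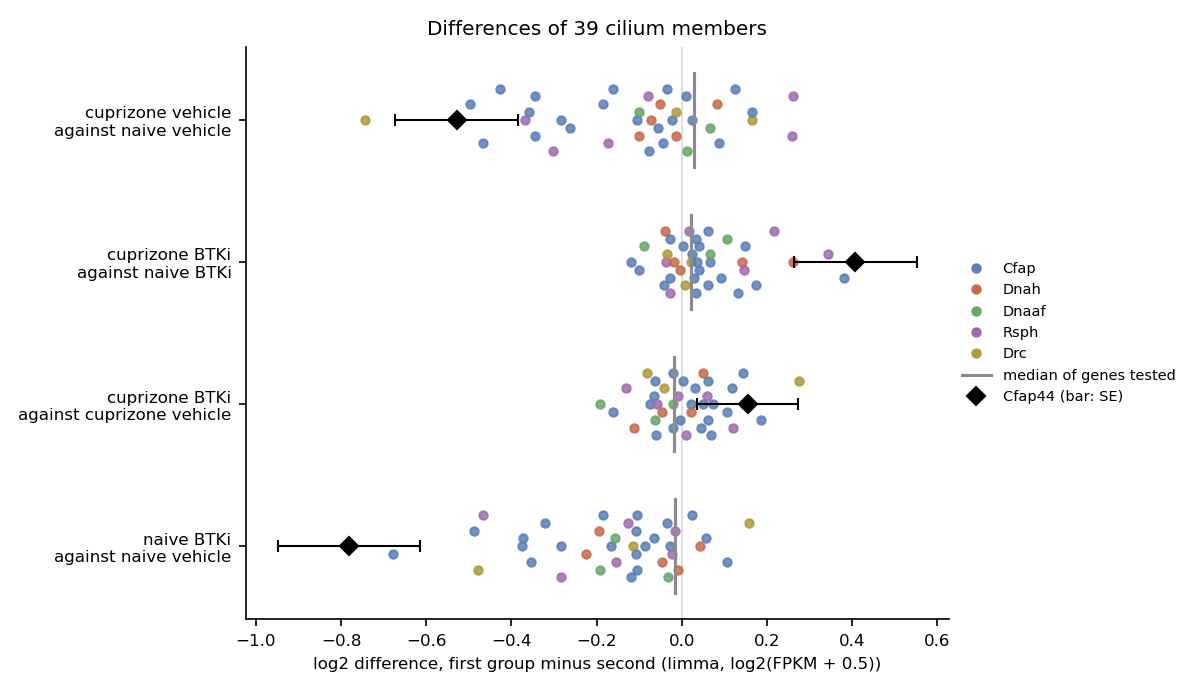
Log2 difference of each of the 39 tested members in 4 comparisons, coloured by name family, with Cfap44 as a black diamond with its SE and the median of all genes tested as a grey line. Cfap44 lies at -0.53, 0.41, 0.15 and -0.78 from top to bottom.

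The level of the other 38 members in a library, taken as the mean of their log2 values after centring each gene, had group means of -0.004 in cuprizone BTKi, -0.02 in cuprizone vehicle, -0.06 in naive BTKi and 0.10 in naive vehicle libraries. The same means for Cfap44, a single gene, were 0.06, -0.10, -0.35 and 0.43. Cfap44 and the others thus had their highest mean in naive vehicle and their lowest in naive BTKi. Single libraries departed from this. In naive vehicle 1 Cfap44 was at 0.54, the highest of the 24 libraries, while the others were at -0.06, and in cuprizone BTKi 5 Cfap44 was at 0.48 with the others at 0.002.

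**Figure D4:**
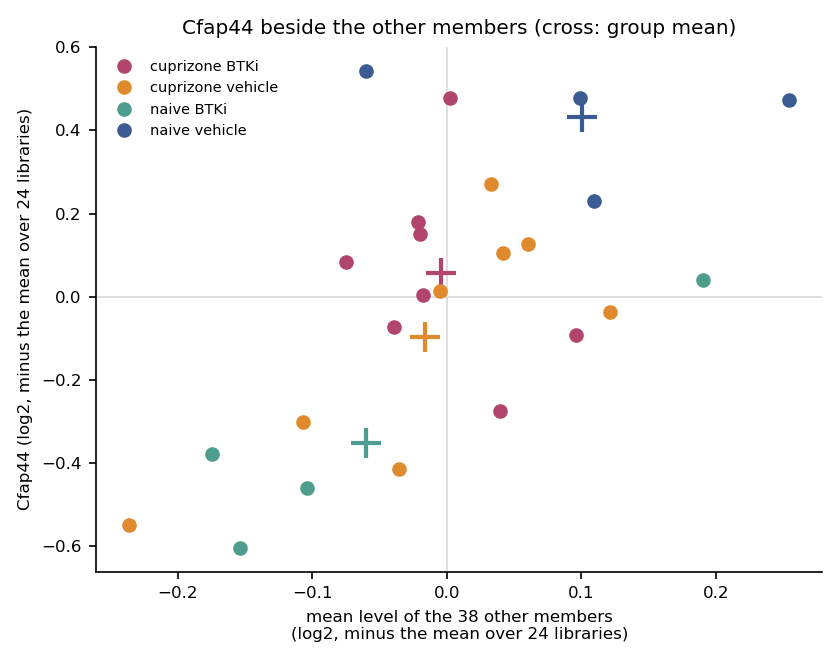
Cfap44 against the mean level of the 38 other tested members, both on the log2 scale after subtracting the mean over 24 libraries; points are libraries and crosses are group means. Cuprizone vehicle 4 is low on both axes (-0.24 and -0.55), and naive vehicle 1 is highest for Cfap44 while the others are at -0.06.

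Once group means were removed, members still differed in how they followed the ependyma list over the 24 libraries. Of 39 members, 17 had a positive correlation with adjusted p under 0.05 and none a negative one (permutation test within groups, adjusted over 78 relations with 2 marker lists), and 15 passed by Spearman's rho. At the highest unadjusted p among those members, 7.51% of all genes tested outside the list had a positive r and 5.58% a positive rho. Dnaaf3 was first (r = 0.88, rho = 0.85, permutation adjusted p = 0.00026 and 0.00117), followed by Rsph1, a spoke head gene (r = 0.86, rho = 0.73, permutation adjusted p = 0.00026 and 0.00624). Without cuprizone vehicle 4 and naive vehicle 2, the libraries farthest from the median, r was 0.86 and 0.85, and over the 17 members it was 0.49 or more. Group means were still those of all 24 libraries there, so the 2 left out still bear on these values. Points share their library and its depth, and the list holds other ciliary genes, so these relations in part set cilium genes beside cilium genes.

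The most abundant members were not among those 17. Cfap36, Cfap20, Cfap298, Rsph3b and Rsph3a had r of 0.28, 0.31, 0.20, 0.27 and 0.11 with the ependyma list, and permutation adjusted p from 0.298 to 0.758. The members called in cuprizone against naive mice fell on both sides. Cfap65 followed the ependyma list (r = 0.79, rho = 0.71, permutation adjusted p = 0.00245 and 0.00819). Cfap61 had r = 0.47 and rho = 0.54 (permutation adjusted p = 0.121 and 0.0538), and Rsph3a and Rsph3b had r as given above.

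The choroid plexus list was compared over the 21 libraries left without the 3 poor in its RNA. The group means removed were those of all 24 libraries, so the other cuprizone vehicle libraries kept a shared offset. The 3 libraries left out thus still bear on these r and rho. Permutation within groups does not remove that offset, so the adjusted p cannot decide whether a relation differs from 0. Here 6 of 39 members passed by r and 5 by rho, where 2.66% and 2.50% of all genes tested outside the list did so at the same unadjusted p. Drc7 followed that list most closely (r = 0.94, rho = 0.96, permutation adjusted p = 0.00026 and 0.00078, and r = 0.95 without the 2 libraries farthest from the median). Rsph1 followed (r = 0.71, rho = 0.66, permutation adjusted p = 0.00589 and 0.00964), then Cfap43 (r = 0.67, rho = 0.71, permutation adjusted p = 0.0258 and 0.0211) and Cfap65 (r = 0.63, rho = 0.69, permutation adjusted p = 0.0199 and 0.00964). Drc7 had 6.51 FPKM in naive BTKi 2, the library with the most choroid plexus RNA at 3181 FPKM, against 1.74 to 2.51 FPKM in the other 3 naive BTKi libraries. The levels of the 2 marker lists were themselves related over the 21 libraries (r = 0.57, with group means taken in the same way).

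Cfap44 passed for neither list, though the test for the choroid plexus list cannot decide, for the reason given above. With the ependyma list it had r = 0.43 and rho = 0.40 (permutation adjusted p = 0.115 and 0.160), and r = 0.29 without the 2 farthest libraries. With the choroid plexus list it had r = 0.60 and rho = 0.55 (permutation adjusted p = 0.137 and 0.204), and r = 0.45 without the 2 farthest. In the values without the 2 farthest, group means were again those of all 24 libraries. That r of 0.60 was above those of Cfap52 (0.57) and Cfap70 (0.49). Both of these passed by r (permutation adjusted p = 0.0458 and 0.0331) but not by rho (permutation adjusted p = 0.0736 and 0.0793). Over the 8 cuprizone BTKi libraries alone the r of Cfap44 was -0.21 with the ependyma list, against 0.69 over the 8 cuprizone vehicle libraries. With the choroid plexus list it was 0.46, against 0.91 over the 8 cuprizone vehicle libraries, which include the 3 poor in choroid plexus RNA.

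**Figure D5:**
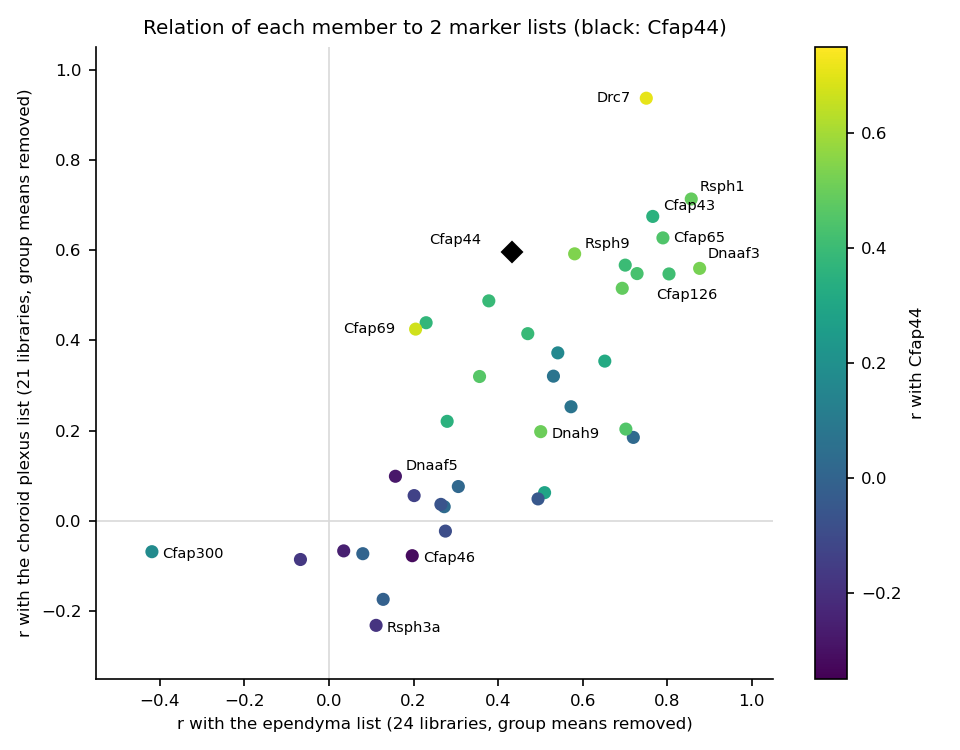
Pearson's r of each of the 39 tested members with the ependyma list (24 libraries) and the choroid plexus list (21 libraries), coloured by r with Cfap44. Group means taken over all 24 libraries were removed first. Drc7 is at the top (0.94), Dnaaf3 and Rsph1 are at the right (0.88 and 0.86), and Cfap44 (black diamond) is at 0.43 and 0.60.

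Likeness to Cfap44 itself was measured as Pearson's r over the 24 libraries with group means removed, as a description. The other 38 members had a median r of 0.30 with Cfap44, and 27 were above 0, while all genes tested had a median of 0.06. The 5 most like it were Drc7 (0.71), Cfap69 (0.67), Rsph9 (0.54), Dnaaf3 (0.52) and Dnah9 (0.50). Without the 3 libraries poor in choroid plexus RNA the values were 0.68 for Cfap69 and 0.55 for Drc7. Group means were still those of all 24 libraries, so the 3 left out still bear on values over the 21. Cfap69 acts in olfactory cilia and the sperm flagellum of the mouse. Cfap43, the partner of Cfap44 in the tether complex, had 0.35, and 0.12 over the 21 libraries.

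The 5 members least like Cfap44 were Cfap46 (-0.32), Dnaaf5 (-0.28), Cfap74 (-0.25), Rsph3a (-0.18) and Dnah7a (-0.17). Cfap46 and Cfap74 are components of the central pair apparatus. Cfap46 had 1.69, 1.47, 1.55 and 1.20 FPKM in naive BTKi libraries, against 0.911, 1.32, 2.18 and 1.37 FPKM in naive vehicle libraries, and its groups overlapped. Cfap74 averaged 5.97 ± 0.372 FPKM in naive BTKi and 6.14 ± 0.551 FPKM in naive vehicle (SD, n = 4 each).

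Of the whole table, the 10 genes most correlated with Cfap44 included no member. Among them were Arl6ip1 (r = 0.80), Col8a1 (0.80), Aga (0.78), Mns1 (0.77), Mfrp, Tmem72, Calml4, Slc24a5 and Cldn1 (0.76 each). Without the libraries poor in choroid plexus RNA, again with group means of all 24, Arl6ip1 had 0.77, Mns1 0.73, Col8a1 0.70 and Aga 0.68. Mfrp, Tmem72, Calml4, Slc24a5 and Cldn1 had 0.64 to 0.66 there. Arl6ip1 shapes the endoplasmic reticulum and was at 93.3 FPKM, and Aga is a lysosomal enzyme. Mns1, a protein inside ciliary doublets, was at 0.882 FPKM. Drc7 ranked 38 and Cfap69 ranked 74 in likeness among the genes tested.

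Promoters of members often held a short site bound by RFX factors, which drive ciliary genes. RefSeq windows of 300 bases were found for 49 of the 61 members. Either GTTGCCA or GTTGCTA, on either strand, was present in 27 of these (55.1%), against 8.77% of 27025 genes. The longer GTTNCCATG, which can overlap the first, was in 12.2% of members and 2.22% of genes, and the forkhead motifs TGTTTAC and TGTTTGC were in 6.12% and 2.04% of members and 4.05% and 5.76% of genes.

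In Cfap44 the first RFX site begins at position -130 from the gene start, and a facing pair begins at -27 and -20, adjoining without overlap. The promoters of the 2 members most like Cfap44 and of the one least like it are shown beside that of Cfap44 because they differ in the motif. All are windows of 300 bases in GRCm38.p6, Drc7 at chr8:95054853-95055152 (plus strand), Cfap69 at chr5:5664183-5664482 (minus strand) and Cfap46 at chr7:139683766-139684065 (minus strand).
Drc7 promoter: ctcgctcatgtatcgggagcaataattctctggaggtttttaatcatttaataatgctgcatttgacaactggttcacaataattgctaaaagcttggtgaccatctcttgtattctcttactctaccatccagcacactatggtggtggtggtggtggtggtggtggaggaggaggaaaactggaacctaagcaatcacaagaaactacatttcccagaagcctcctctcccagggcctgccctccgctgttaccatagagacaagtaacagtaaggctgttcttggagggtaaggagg
Cfap69 promoter: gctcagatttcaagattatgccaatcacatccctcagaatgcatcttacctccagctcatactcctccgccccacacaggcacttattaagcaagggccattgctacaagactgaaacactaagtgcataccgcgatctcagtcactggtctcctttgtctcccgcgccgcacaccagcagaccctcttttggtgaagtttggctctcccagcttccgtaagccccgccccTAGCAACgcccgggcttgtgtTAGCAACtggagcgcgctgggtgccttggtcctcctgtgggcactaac
Cfap46 promoter: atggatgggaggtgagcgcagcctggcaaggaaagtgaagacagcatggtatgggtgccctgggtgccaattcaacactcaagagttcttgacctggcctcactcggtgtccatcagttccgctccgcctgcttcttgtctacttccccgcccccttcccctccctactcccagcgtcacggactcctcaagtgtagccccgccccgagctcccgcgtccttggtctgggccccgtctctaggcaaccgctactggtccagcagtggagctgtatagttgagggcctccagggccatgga
Cfap69 holds 2 RFX sites, beginning at -19 and 3, while Drc7 and Cfap46 hold neither GTTGCCA nor GTTGCTA in this window. Only exact matches were sought, so looser forms of the site would be missed. A match is a description of the letters and not a measured binding site.

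Other ciliary genes were examined in the same way. The 7 lists of further ciliary genes held 93 tested genes that are not members. For naive BTKi against naive vehicle 76 of them were below 0 (median -0.09) and none was called by limma, with 11 (of 93) at an unadjusted p under 0.05, beside the 12.6% of all genes tested. For cuprizone vehicle against naive vehicle 64 were below 0 (median -0.06), with 1 called higher and 2 lower. For cuprizone BTKi against naive BTKi 54 were above 0 (median 0.01), with 1 called higher. For cuprizone BTKi against cuprizone vehicle 52 were below 0 (median -0.01), none was called by limma, and 8 had an unadjusted p under 0.05, beside 8.79% of all genes tested.

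The called genes were Spag6l, Dnali1 and Rfx4. Spag6l, a central pair protein and 1 of 14 tested genes of the central pair and spokes (highest gene Nme5, 9.85 FPKM), fell to 2.13 ± 0.361 FPKM in cuprizone vehicle, against 2.93 ± 0.447 FPKM in naive vehicle (SD, n = 8 and 4), a log2 difference of -0.38 (SE 0.11, limma adjusted p = 0.0170). Dnali1, an inner arm light intermediate chain and 1 of 9 tested among the other axonemal dynein subunits (highest gene Dnal1, 20.1 FPKM), averaged 1.27 ± 0.411 and 2.17 ± 0.871 FPKM in the same groups, a log2 difference of -0.57 (SE 0.19, limma adjusted p = 0.0418). Rfx4, a factor of the RFX family, was 1 of 9 tested genes on the list made for regulators of multiciliated cells. It rose in cuprizone vehicle against naive vehicle by 0.25 (SE 0.08, limma adjusted p = 0.0244), where 3 genes of that list were above 0 and 6 below. It also rose in cuprizone BTKi, to 5.84 ± 0.451 FPKM, against 4.38 ± 0.449 FPKM in naive BTKi (SD, n = 8 and 4), by 0.38 (SE 0.08, limma adjusted p = 0.00133).

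In the same list of regulators Foxj1 averaged 5.74 ± 1.08 FPKM in cuprizone vehicle and 7.74 ± 2.16 FPKM in naive vehicle (SD, n = 8 and 4), a difference of -0.39 (SE 0.15, limma adjusted p = 0.0784). In naive BTKi it averaged 6.01 ± 1.40 FPKM, which lay -0.33 (SE 0.17, limma adjusted p = 0.426) from naive vehicle. The lists of 12 docking and assembly genes (highest gene Ruvbl1, 18.1 FPKM), 17 genes of the ruler, nexin link and microtubule inner proteins (Gas8, 10.4 FPKM), 23 intraflagellar transport genes (Kifap3, 70.4 FPKM) and 9 BBSome genes (Bbs4, 18.3 FPKM) had no limma call in any comparison. At an unadjusted p under 0.05, cuprizone vehicle against naive vehicle had 1, 0, 1 and 1 of them, and naive BTKi against naive vehicle 0, 1, 4 and 1. Intraflagellar transport and the BBSome also serve the single immotile cilium of neurons and glia.

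Markers of other cells changed with cuprizone. All 8 oligodendrocyte markers fell and 6 of 8 microglia markers rose in both comparisons of cuprizone with naive mice. For cuprizone vehicle against naive vehicle the mean levels differed by -1.54 for oligodendrocytes and 1.15 for microglia (exact permutation, adjusted p = 0.0162 for each), and by 0.45 for astrocytes, of whose 6 markers 3 rose and 1 fell (exact permutation, adjusted p = 0.0162). The striatal neuron list differed by -0.97 (exact permutation, adjusted p = 0.0162) and the general neuron list by -0.01 (exact permutation, adjusted p = 0.805). The part of these lists in the members' values was not tested.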

How the data were processed

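Per the labels' protocols, libraries of mouse corpus callosum were stranded and made from polyadenylated RNA, and were grouped by their labels. The authors deposited FPKM values per Ensembl gene, 1 column per library. The sources used here do not name an aligner, counter, build or annotation. Symbols and coordinates came from GENCODE M21 (GRCm38), where 53229 of 54446 IDs were found with their version and 54409 were matched to a symbol. Of the members, 57 matched with their version. No column of the table was left out.

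The 15216 genes with a mean FPKM of 0.5 or more entered limma 3.58.1 (R 4.3.3, eBayes with a trend) as log2(FPKM + 0.5), 4 groups in 1 model, Benjamini-Hochberg at 0.05 per comparison. This understates changes of low genes. Column sums were 462521 to 496350, so values are not TPM. Low values of genes with 1 annotated transcript were whole fragment multiples (within 0.1) in 89.3% of cases, against 35.8% for 2 transcripts, so no count test was run. On simulated data of 15216 genes, changes of 0.5 (log2) were recovered in 69% for naive BTKi against naive vehicle and 85% for cuprizone vehicle against naive vehicle. The changed genes were drawn at random from all genes tested, so recovery among the members, mostly lower in level, was not measured. They also outnumbered the 33 genes called in the real comparison of naive BTKi with naive vehicle.

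List levels are means of gene-centred log2 values over tested genes, compared with two-sided exact permutation tests. Correlations used 100000 permutations within groups. Group means were removed over all 24 libraries before any library was left out. Named genes were Cfap44, the 3 highest of each family, called members, members with copies, the 10 genes and the 5 members most and the 5 least like Cfap44, and from each list its called genes and highest gene, with others named after their values were seen. One gene under this rule is not reported here. Alternatives were other pseudocounts (0.1, 1), filters, scalings, priors, sample subsets, a replicate block and leaving out each library. Python 3.11.15, pandas 2.3.3, numpy 2.4.6, scipy 1.17.1 and matplotlib 3.10.9 were used. The members and lists were chosen with earlier results of these data known.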

Additional observations from a re-analysis of the deposited data

Results flagged for a closer look

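Single libraries stood apart from the rest of their group in 5 of 92 groups of values examined (23 named members in 4 groups), and chance alone flags about 1 in 20. Drc7 had 6.51 FPKM in naive BTKi 2, against 1.74 to 2.51 in the other 3 libraries of that group. Cfap36 had 41.2 FPKM in naive BTKi 1, against 48.2 to 49.3 in the others. Dnaaf5 had 2.98 FPKM in naive vehicle 2, against 2.43 to 2.52 in the others. In cuprizone BTKi 4, Cfap61 had 1.53 FPKM, against 0.793 to 1.13 in the other 7 libraries, and Dnaaf2 had 0.891 FPKM, against 0.517 to 0.688.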

How the results depend on the processing

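Library number and low levels set the limits: naive groups have 4 libraries, and 22 of 61 members were too low to test. Of 3850 alternative values of the named members, 3804 kept their side of the threshold, 38 lost it and 8 gained it. Of the 3850, 179 had the opposite sign, in 45 results of at most 0.28 in size, and 0 of these were called in the reported or the alternative limma fit. The causes of the changes below were not tested.

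The member called for naive BTKi against naive vehicle (Cfap44) gave a count of 0 with no filter, quantile normalization, only the groups compared, the replicate block, or without the libraries of highest and lowest ependyma level, and in 0 to 1 leaving out single libraries. Members called for cuprizone vehicle against naive vehicle numbered 1 without the 3 choroid-poor libraries or without the libraries of highest and lowest ependyma level, both chosen after seeing the data, and ranged from 2 to 6 leaving out single libraries. For cuprizone BTKi against naive BTKi they were 0 with no filter, median ratio scaling or quantile normalization, 2 with only the groups compared or without the choroid-poor libraries, and 0 to 2 leaving out single libraries; the members' median was -0.03 under quantile normalization, against 0.03. For the difference of BTKi effects they were 0 to 1 leaving out single libraries.

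Counts over all genes for naive BTKi against naive vehicle (33) were 21 with no filter, 3 with only the groups compared, 19 without the choroid-poor libraries, 12 without the libraries of highest and lowest ependyma level, and 7 to 41 leaving out single libraries. For cuprizone BTKi against cuprizone vehicle (27) they were 16 with no filter, 17 at a minimum of 0.1 FPKM, 11 without the choroid-poor libraries, 18 without the ependyma extremes, and 14 to 34 leaving out single libraries. For the difference of BTKi effects (19) they were 9 with the replicate block, 7 without the choroid-poor libraries, 8 without the ependyma extremes, and 8 to 23 leaving out single libraries.

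Replicate numbers were not used to pair the samples: same-numbered libraries had correlations of deviations from -0.27 to 0.32, over 0.1 in 8 of 28 pairs. Libraries with different numbers were not compared in this way, so the check cannot decide whether some samples are paired. With the replicate block 5 members were called for cuprizone vehicle against naive vehicle and 1 for cuprizone BTKi against naive BTKi.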
